A study of Drosophila melanogaster with 8 samples.

Results

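The genes described here, 9 genes of fatty acid synthesis and lipid droplet metabolism, were followed in somatic cyst cells of the Drosophila melanogaster testis. They were picked by symbol from 16018 genes in the deposited table and are bmm, Lsd-1, Lsd-2, mdy, FASN1, ACC, Desat1, Lpin and Seipin. All 9 passed the filter on low counts, a level of at least 1 CPM in at least 2 libraries, which left 12570 genes for testing. CPM is the read count of a gene scaled to the library's total, here after TMM adjustment of the totals between libraries. Poly(A)+ RNA came from dissociated testes of 2 crosses. The driver tj-GAL4 (stock #104055 of Kyoto) was combined with the reporter UAS-GFP (stock #9431 of Bloomington), and the same reporter with the eya-GAL4 driver that Leatherman and Dinardo described in 2008. Either driver switches on green fluorescent protein, so the sorted cells are those in which the driver was active: the study sorted early cyst cells from the tj-GAL4 cross and mature cyst cells from the eya-GAL4 cross. The 4 groups were the GFP-positive sorted cells and the unsorted cell suspension of each cross, with 2 libraries per group and 8 in all. No age is given, and all groups carried UAS-GFP and a driver, the unsorted ones included. The libraries are called biological replicates, but nothing says which animals or dissections they came from, so the p-values measure only the spread between these libraries.

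Fatty acids are built from acetyl-CoA in the cytosol, desaturated, joined to a glycerol backbone and stored as triacylglycerol in lipid droplets, organelles that bud from the endoplasmic reticulum and carry a coat of proteins on their surface. When energy or membrane lipid is needed, lipases on the droplet free the fatty acids again, and mitochondria and peroxisomes burn them. Cyst cells are the somatic support cells that enclose the germ cells through their development, and droplets occur in somatic and germline cells of the fly testis.

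Gene counts summed to between 10771009 and 25344721 per library. Transcripts of cyst cells marked the sorted libraries. The 7 markers of early cyst cells summed to 507 to 770 CPM in sorted and 182 to 385 CPM in unsorted libraries, and 5 of them were called higher in tj-GAL4 and 4 in eya-GAL4 sorted cells. Not all moved that way: chinmo fell from 235 and 240 CPM to 65.2 and 62.5 CPM with eya-GAL4 sorting, zfh1 stood at 31.5 and 31.2 CPM in unsorted and 18.3 and 16.3 CPM in sorted libraries of that cross, and dome alone gave 405 and 331 CPM of the eya-GAL4 sorted sums. The 4 markers of mature cyst cells summed to 252 to 352 CPM in sorted and 66.9 to 73.2 CPM in unsorted libraries. Of these 4, 3 rose in both crosses and Abd-B fell in both, at 3.27 to 4.55 CPM in sorted and 8.76 to 34.0 CPM in unsorted libraries. Both driver genes were found in both sorted populations: tj stood at 45.4 and 28.9 CPM in tj-GAL4 sorted and at 19.9 and 14.9 CPM in eya-GAL4 sorted libraries, while eya stood at 211 and 147 CPM and at 153 and 146 CPM. The 6 spermatid markers still summed to 240 to 479 CPM in sorted libraries, against 669 to 862 CPM in unsorted ones. The 8 spermatocyte markers summed to 94.7 to 146 CPM in tj-GAL4 sorted and 67.2 to 67.9 CPM in eya-GAL4 sorted libraries. They summed to 142 to 336 CPM in unsorted ones. The 6 early germline markers summed to 163 to 202 CPM, 95.4 to 107 CPM and 132 to 346 CPM in turn. With tj-GAL4 sorting none of these 8 or 6 was called lower, against 2.38% of all tested genes. With eya-GAL4 sorting 8 and 3 were, against 20%. The 9 muscle markers summed to 84.1 to 133 CPM in tj-GAL4 sorted, 330.3 to 357 CPM in eya-GAL4 sorted and 491 to 1031 CPM in unsorted libraries. The 6 hemocyte markers summed to 283 to 298 CPM in eya-GAL4 sorted, 173 to 231 CPM in tj-GAL4 sorted and at most 222 CPM in unsorted libraries, so both eya-GAL4 sorted libraries were above every unsorted one. Of the 6, crq alone gave 226 and 214 CPM of the eya-GAL4 sorted sums, while Hml stood at 15.3 and 9.40 CPM there and at 58.0 and 38.2 CPM in eya-GAL4 unsorted libraries. One library stood apart. In tj-GAL4 unsorted replicate 2, 12 of 14 fat body, 8 of 10 gut and 7 of 9 muscle markers were above their level in every other unsorted library, and mitochondrially encoded genes took 31.7% of the counts, against 4.68% to 19.8% in the other libraries. Its fat body markers summed to 512 CPM, against 62.4 to 122 CPM in the other unsorted and 44.3 to 51.8 CPM in the sorted libraries. Its gut markers summed to 3270 CPM, against 50.7 to 497 CPM and 109 to 211 CPM. The muscle sum stood apart little, at 1031 CPM against 491 to 1003 CPM in the other unsorted libraries. The fat body marker to and the gut marker iotaTry were at 0 in at least 1 library, and all 8 spermatocyte, all 6 early germline and 5 of 7 early cyst cell markers were lower in it than in every other unsorted library. Its early cyst cell markers summed to 182 CPM, against 364 to 385 CPM in the other unsorted libraries. Spermatid markers were not lower as a set: 4 of 6 were above and 1 below every other unsorted library. They summed to 862 CPM there, against 669 to 768 CPM in the other unsorted libraries. Fat body is the main fat store of the fly and is known to express many lipid genes. The part of these differences in makeup in the ratios of sorted to unsorted cells was not tested. Log2 differences of the 9 genes that use this library are given without it as well.

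The fatty acid synthase gene FASN1 rose in sorted cells of both crosses, and the desaturase gene Desat1, the lipase gene bmm and the acyltransferase gene mdy rose in eya-GAL4 sorted cells. The carboxylase gene ACC, the lipin gene Lpin, Seipin and the droplet coat genes Lsd-1 and Lsd-2 were called in neither cross. With an adjusted p under 0.05 in edgeR's quasi-likelihood test as the call, 1 of the 9 genes was higher in tj-GAL4 sorted than unsorted cells, where 8.98% of all tested genes were. None was lower, against 2.38% of all tested genes, although 1 gene was lower at an unadjusted p under 0.05 and by DESeq2 and none by limma. In the eya-GAL4 cross 4 of the 9 were higher, where 28% of all tested genes were, and none was lower, against 20% of all tested genes, with none lower at an unadjusted p under 0.05, by DESeq2 or by limma. The median log2 difference of the 9 genes was 1.03 in the tj-GAL4 cross and 1.39 in the eya-GAL4 cross, against -0.08 and -0.09 over all tested genes. With groups of 2, levels often separate: 6 of the 9 genes were higher in both tj-GAL4 sorted libraries than in both unsorted ones, which 32.9% of all tested genes also were, and 1 was lower in both, which 22.9% also were. With eya-GAL4, 8 of the 9 were higher in both sorted libraries, against 42% of all tested genes. In bulk RNA, fewer cells of a type and less RNA per cell cannot be told apart.

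**Figure D1:**
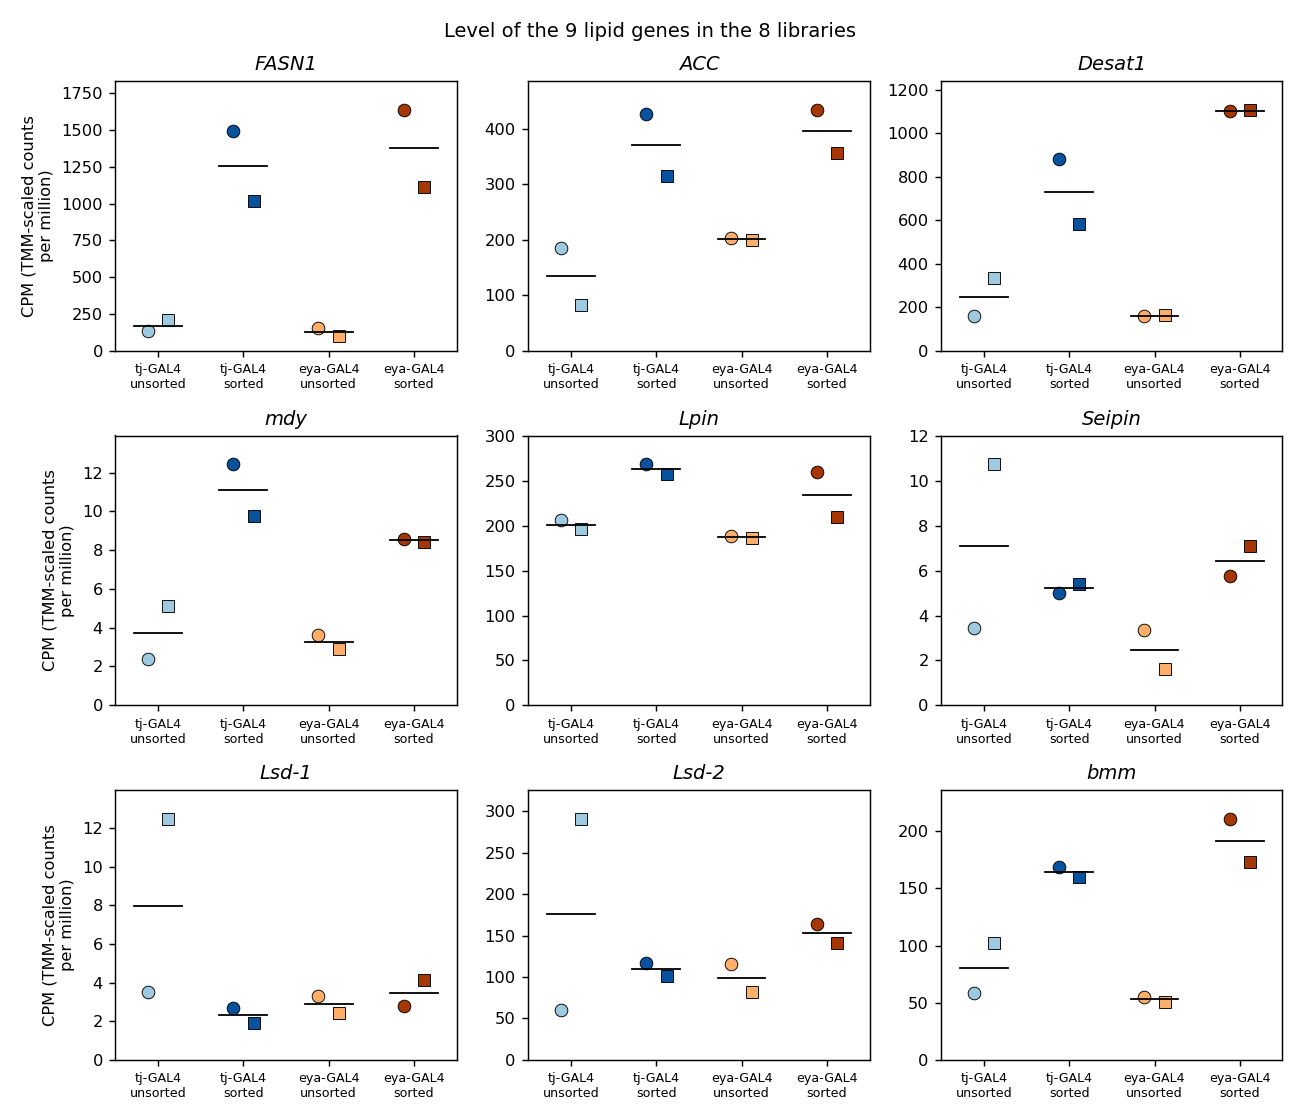
Level of each gene in the 8 libraries, in TMM-scaled CPM on a linear axis from 0. Circles are the first and squares the second library of a group, and the bar is the group mean. FASN1 lies at 1018 to 1636 CPM in the 4 sorted libraries and at 97.7 to 209 CPM in the unsorted ones, whereas Lsd-1, Lsd-2 and Seipin have their highest point in tj-GAL4 unsorted replicate 2.

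Fatty acid synthesis begins with ACC, acetyl-CoA carboxylase, which makes the malonyl-CoA that chain building consumes. The gene lies on chromosome 2R at 7974115 to 7991862 of the BDGP6 assembly (dm6). Its level was 426 and 314 CPM in tj-GAL4 sorted replicates 1 and 2 and 185 and 83.3 CPM in unsorted replicates 1 and 2. For eya-GAL4 it was 434 and 357 CPM in sorted and 204 and 199 CPM in unsorted libraries. All 4 sorted libraries lay above all 4 unsorted ones. The log2 difference was 1.46 ± 0.43 (SE) for tj-GAL4 (edgeR adjusted p = 0.0618) and 0.97 ± 0.42 for eya-GAL4 (edgeR adjusted p = 0.0837), and neither was called. Calls depended on single libraries: the tj-GAL4 value was 0.98 without tj-GAL4 unsorted replicate 2 (edgeR adjusted p = 0.0553), and without unsorted replicate 1 it was 2.14 with an edgeR adjusted p of 0.00171 (range over 17 alternatives 0.00171 to 0.507). The eya-GAL4 value became a call when either tj-GAL4 unsorted library left the shared fit, with an edgeR adjusted p of 0.0123 and 0.0133 (range over 17 alternatives 0.000866 to 0.82). ACC was the 1 member whose level in tj-GAL4 unsorted replicate 2 was below that of every other unsorted library.

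FASN1 encodes the fatty acid synthase that extends malonyl-CoA units into a saturated chain, and it lies on chromosome 2L at 3056598 to 3068177. It stood at 1493 and 1018 CPM in tj-GAL4 sorted and at 134 and 209 CPM in tj-GAL4 unsorted replicates 1 and 2. The eya-GAL4 levels were 1636 and 1114 CPM in sorted replicates 1 and 2 and 153 and 97.7 CPM in unsorted replicates 3 and 4. The lowest sorted library was far above the highest unsorted one. FASN1 rose 7.33-fold with tj-GAL4 sorting, a log2 change of 2.87 ± 0.46 (SE, edgeR adjusted p = 0.00697). It rose 11-fold with eya-GAL4 sorting, a log2 change of 3.45 ± 0.47 (edgeR adjusted p = 0.00161), and this call held without each of the 8 libraries in turn (highest edgeR adjusted p = 0.0337). In tj-GAL4 it was 3.20 without unsorted replicate 2 (edgeR adjusted p = 0.000742). The tj-GAL4 call was lost without tj-GAL4 sorted replicate 1, where the log2 change was 2.54 (edgeR adjusted p = 0.0534). It was lost as well when only the tj-GAL4 libraries were fitted (2.85, edgeR adjusted p = 0.0748; range over 17 alternatives 1.68e-08 to 0.0748).

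The 2 paralogs of FASN1 were far scarcer and neither was called. FASN2 is its neighbour on the same strand, at 3043947 to 3056143 of chromosome 2L, with no exon shared in this annotation. It was listed at 100 to 344 counts per library, where FASN1 had 2197 to 26291. The log2 difference of FASN2 was 0.66 ± 0.30 in the tj-GAL4 cross (edgeR adjusted p = 0.176) and -0.59 ± 0.30 in the eya-GAL4 cross (edgeR adjusted p = 0.128). FASN3 had 18 to 154 counts per library and differed by -0.28 ± 0.59 (edgeR adjusted p = 0.749) and -1.43 ± 0.62 (edgeR adjusted p = 0.0817). The treatment of reads with several matches is not given in the sources used, so reads of similar stretches may have been split between paralogs.

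Desat1, the main fly acyl-CoA desaturase, puts the double bond into newly made saturated fatty acids. It lies on chromosome 3R at 12439600 to 12447616. Sorted cells held 880 and 583 CPM in the tj-GAL4 cross and 1099.7 and 1107 CPM in the eya-GAL4 cross. Unsorted cells held 162 and 334 CPM in tj-GAL4 replicates 1 and 2, and 158 and 165 CPM in eya-GAL4 replicates 3 and 4. No sorted library overlapped an unsorted one, and tj-GAL4 unsorted replicate 2 lay between the other unsorted libraries and the sorted ones. Desat1 rose 6.83-fold with eya-GAL4 sorting, a log2 change of 2.77 ± 0.45 (edgeR adjusted p = 0.0031) that held without each library in turn (highest edgeR adjusted p = 0.0447). With limma on the authors' RPM the log2 difference was 2.07 and its adjusted p 0.0652 (range over 17 alternatives 3.96e-09 to 0.0652). In the tj-GAL4 cross the difference was 1.56 ± 0.43 (edgeR adjusted p = 0.0516). It passed without tj-GAL4 unsorted replicate 2, where the log2 change was 2.15 (edgeR adjusted p = 0.00205; range over 17 alternatives 0.00205 to 0.477). Its close paralog Desat2 had 0 to 11 counts per library and did not pass the filter.

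**Figure D2:**
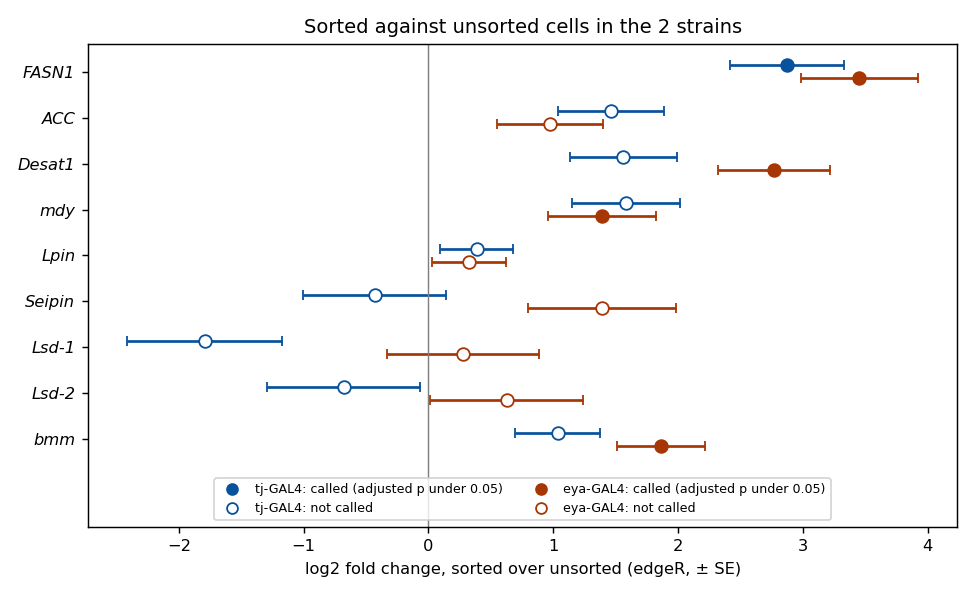
Log2 fold change of sorted over unsorted cells for the 9 genes, tj-GAL4 in blue and eya-GAL4 in brown, with filled points for called genes. The bar is the standard error worked out from the edgeR log2 change and its F statistic. FASN1 is filled in both crosses, and Desat1, mdy and bmm only in the eya-GAL4 cross, a contrast between crosses that was itself not called for any of the 9. Lsd-1 shows the lowest value, -1.79 in the tj-GAL4 cross.

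Storage of the fatty acids as triacylglycerol depends on mdy and Lpin. The gene mdy (midway; 2L, 16816660 to 16826964) encodes a diacylglycerol acyltransferase, which adds the last fatty acid to the glycerol backbone. It was scarce, with 58 to 252 counts per library. Its level was 12.4 and 9.76 CPM in tj-GAL4 sorted and 2.38 and 5.10 CPM in tj-GAL4 unsorted libraries, and 8.58 and 8.43 CPM in eya-GAL4 sorted and 3.61 and 2.89 CPM in eya-GAL4 unsorted libraries. Again the sorted and unsorted libraries did not overlap. The gene rose 2.62-fold with eya-GAL4 sorting, a log2 change of 1.39 ± 0.43 (edgeR adjusted p = 0.0311). That call was lost without any 1 of the 4 eya-GAL4 libraries: 1.54 without unsorted replicate 3, 1.22 without unsorted replicate 4, and 1.39 and 1.41 without sorted replicates 1 and 2 (edgeR adjusted p = 0.0964, 0.17, 0.111 and 0.119; range over 17 alternatives 0.00139 to 0.55). The tj-GAL4 difference was slightly larger, 1.58 ± 0.43, but just missed the threshold (edgeR adjusted p = 0.0513). Without tj-GAL4 unsorted replicate 2 it was 2.19 and called (edgeR adjusted p = 0.00198; range over 17 alternatives 0.00198 to 0.479). Of the other fly genes of the same enzymatic step, Dgat2 had 0 to 16 counts per library, CG1946 0 to 9, and CG1941 9 to 152, with the 152 in tj-GAL4 unsorted replicate 2.

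Lpin (2R, 8136986 to 8156654) encodes lipin, the phosphatidate phosphatase that makes the diacylglycerol used by mdy. It was the steadiest of the 9 genes. Its level was 269 and 258 CPM in tj-GAL4 sorted and 207 and 196 CPM in tj-GAL4 unsorted libraries, and 260 and 210 CPM in eya-GAL4 sorted and 188 and 187 CPM in eya-GAL4 unsorted libraries. Every sorted library was above every unsorted one, by a small margin. The log2 differences were 0.39 ± 0.29 (edgeR adjusted p = 0.375) and 0.32 ± 0.29 (edgeR adjusted p = 0.368), and the second was -0.37 on the RPM scale. The first was 0.32 without tj-GAL4 unsorted replicate 2. An exonic stretch of 600 bases, 10.9% of its exons, is shared with kermit on the same strand, so some of its reads may belong to that gene.

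Seipin (X, 2619799 to 2622140) encodes a protein of the endoplasmic reticulum at the sites where droplets form, which controls droplet size. With 36 to 140 counts per library it was among the scarcest members. Its level was 5.01 and 5.42 CPM in tj-GAL4 sorted and 3.46 and 10.8 CPM in tj-GAL4 unsorted libraries, and 5.79 and 7.09 CPM in eya-GAL4 sorted and 3.36 and 1.60 CPM in eya-GAL4 unsorted libraries. The tj-GAL4 groups overlapped because their unsorted replicate 2 held the highest level of the 8 libraries, and the eya-GAL4 groups did not overlap. The log2 difference was -0.43 ± 0.57 in the tj-GAL4 cross (edgeR adjusted p = 0.607), where it turned to 0.57 without tj-GAL4 unsorted replicate 2. It was 1.39 ± 0.59 in the eya-GAL4 cross (edgeR adjusted p = 0.08), where it became a call without tj-GAL4 unsorted replicate 1 or 2 (1.40 and 1.35; edgeR adjusted p = 0.00607 and 0.0132; range over 17 alternatives 0.00607 to 0.513). A stretch of 72 exonic bases overlaps brv3 on the opposite strand. The library kit keeps strand, but whether the counting used it is not given in the sources used.

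The droplet coat genes Lsd-1 and Lsd-2 encode the 2 fly perilipins, which lie on the droplet surface. Lsd-2 shields the store from lipases, and Lsd-1 also takes part in hormone-driven fat release. Lsd-1 (3R, 23763857 to 23766662) was the scarcest member per length in sorted cells, with 27 to 159 counts per library. Its level was 2.69 and 1.90 CPM in tj-GAL4 sorted and 3.49 and 12.5 CPM in tj-GAL4 unsorted libraries, and 2.79 and 4.12 CPM in eya-GAL4 sorted and 3.30 and 2.45 CPM in eya-GAL4 unsorted libraries. All libraries but tj-GAL4 unsorted replicate 2 lay between 1.90 and 4.12 CPM, and that library was far above them. The log2 difference was -1.79 ± 0.62 in the tj-GAL4 cross (edgeR adjusted p = 0.0973) and 0.28 ± 0.61 in the eya-GAL4 cross (edgeR adjusted p = 0.712). Without tj-GAL4 unsorted replicate 2 the first was -0.65, and without replicate 1 it was -2.47 and called (edgeR adjusted p = 0.000929; range over 17 alternatives 0.000929 to 0.458). DESeq2 also called it, at -1.87 (adjusted p = 0.032). A stretch of 144 exonic bases, 7.35% of its exons, overlaps CG10214 on the opposite strand.

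Lsd-2 (X, 15069127 to 15076220) was far more abundant. Its level was 117 and 101 CPM in tj-GAL4 sorted and 60.1 and 291 CPM in tj-GAL4 unsorted libraries, and 164 and 141 CPM in eya-GAL4 sorted and 116 and 81.5 CPM in eya-GAL4 unsorted libraries. The 2 tj-GAL4 unsorted libraries were thus the lowest and the highest of the 8, and differed 4.84-fold from each other. The eya-GAL4 sorted libraries were above the unsorted ones. The log2 difference was -0.68 ± 0.61 (edgeR adjusted p = 0.45) for tj-GAL4 and 0.63 ± 0.61 (edgeR adjusted p = 0.405) for eya-GAL4. The tj-GAL4 value turned to 0.84 without unsorted replicate 2 (edgeR adjusted p = 0.0842), and was called lower without unsorted replicate 1, at -1.42 (edgeR adjusted p = 0.00804; range over 17 alternatives 0.00804 to 0.887).

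**Figure D3:**
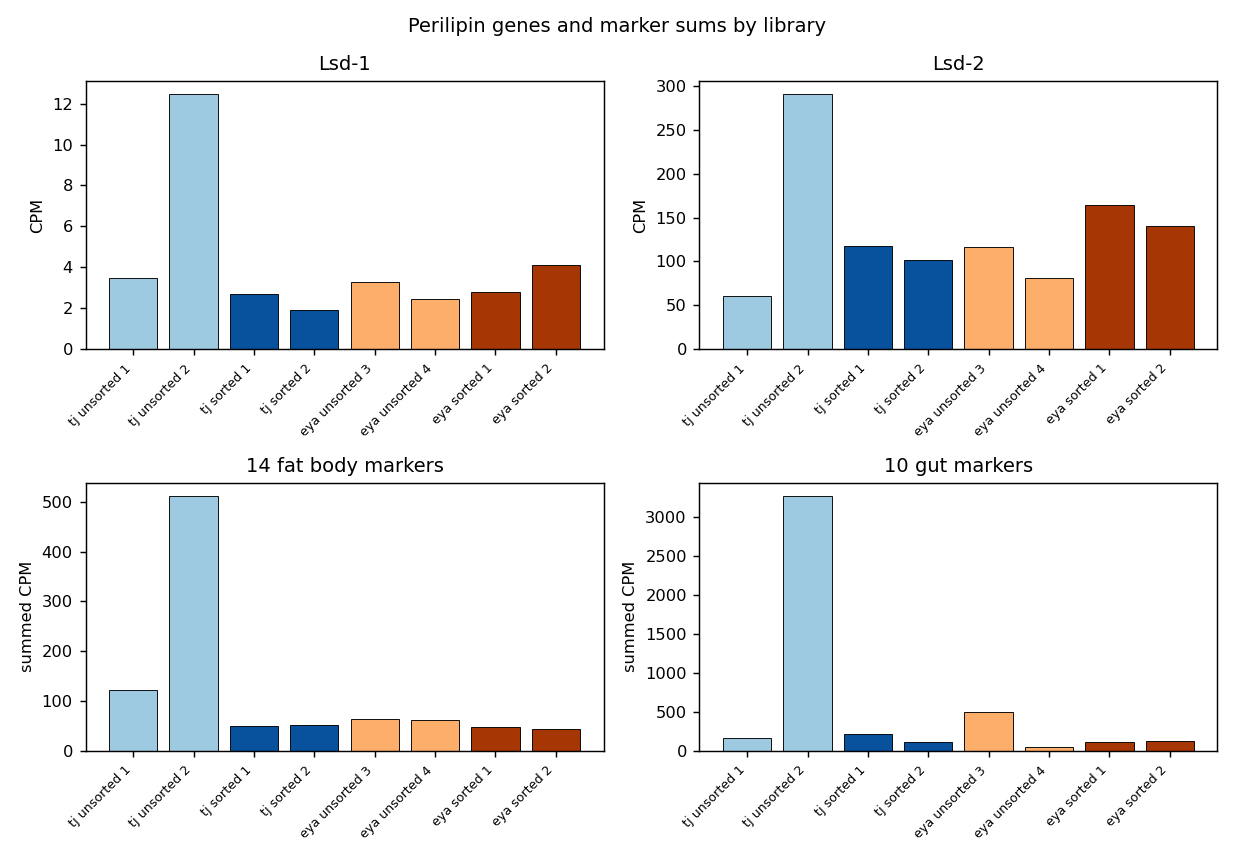
Level of Lsd-1 and Lsd-2 in CPM, and summed CPM of the 14 fat body and 10 gut markers, in each of the 8 libraries, as bars from 0. In all 4 panels the highest bar is tj-GAL4 unsorted replicate 2, at 12.5 CPM, 291 CPM, 512 CPM and 3270 CPM.

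Triacylglycerol is opened by bmm (brummer; 3L, 14776496 to 14786412), the fly counterpart of the mammalian adipose triglyceride lipase. Its level was 169 and 160 CPM in tj-GAL4 sorted and 58.5 and 102 CPM in tj-GAL4 unsorted libraries, and 211 and 173 CPM in eya-GAL4 sorted and 55.2 and 50.4 CPM in eya-GAL4 unsorted libraries. The sorted libraries of both crosses lay above all unsorted ones. The lipase gene rose 3.64-fold with eya-GAL4 sorting, a log2 change of 1.86 ± 0.35 (edgeR adjusted p = 0.00528). The call was lost without eya-GAL4 unsorted replicate 4 (1.78, edgeR adjusted p = 0.0621), and limma on RPM gave 1.15 (adjusted p = 0.278; range over 17 alternatives 3.41e-06 to 0.278). In the tj-GAL4 cross the difference was 1.03 ± 0.34 (edgeR adjusted p = 0.0878), or 1.46 and called without tj-GAL4 unsorted replicate 2 (edgeR adjusted p = 0.00563; range over 17 alternatives 0.00563 to 0.749). Hsl, the hormone-sensitive lipase gene, another lipase of stored fat, differed by 0.54 ± 0.34 and 0.27 ± 0.34 and was not called in either cross (edgeR adjusted p = 0.293 and 0.519).

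The count of calls in the tj-GAL4 cross depended on tj-GAL4 unsorted replicate 2. Without it, FASN1, Desat1, mdy and bmm were called higher, 4 of the 9 and the same 4 genes that were called in the eya-GAL4 cross. Calls rose over all genes too: 25% of all tested genes were called higher and 10.8% lower in that fit. Without tj-GAL4 unsorted replicate 1 instead, FASN1 and ACC were called higher and Lsd-1 and Lsd-2 lower, 2 of 9 each, where 13.4% of all tested genes were called higher and 13.4% lower. Relative to the mean of the other 3 unsorted libraries, replicate 2 held 4.05 times the Lsd-1, 3.83 times the Seipin, 3.39 times the Lsd-2, 2.06 times the Desat1, 1.86 times the bmm, 1.72 times the mdy, 1.62 times the FASN1, 1.01 times the Lpin and 0.425 times the ACC level. The part of fat body or gut RNA in these levels was not tested. The index read length in the labels splits the tj-GAL4 cross in the same way, with 6 bases for both first replicates and 8 bases for both second ones. Within the 6-base pair the log2 ratio of sorted to unsorted was 3.48 for FASN1, 2.44 for Desat1, 2.38 for mdy, 1.53 for bmm and 1.2 for ACC. In the 8-base pair the same genes gave 2.29, 0.81, 0.94, 0.65 and 1.91. Both pairs had the same sign for these 5 genes and for Lpin (0.38 and 0.40) and Lsd-1 (-0.38 and -2.72), and opposite signs for Lsd-2 (0.97 and -1.52) and Seipin (0.54 and -0.99). Each pair is 1 library against 1, so index length and library cannot be told apart. All eya-GAL4 libraries had 8 bases.

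Scaled to gene length, the 9 genes differed widely in sorted cells. Desat1 led at 362 ± 104 CPM per kb (SD, n = 2) in tj-GAL4 sorted and 546 ± 2.44 CPM per kb in eya-GAL4 sorted cells, levels that only 1.84% and 1.58% of tested genes exceeded. FASN1 followed at 146 ± 38.9 and 159 ± 42.8 CPM per kb, and then bmm at 67.4 ± 2.53 and 78.7 ± 11.1 CPM per kb. Lpin (59.0 ± 1.65 and 52.7 ± 7.98 CPM per kb) and ACC (46.2 ± 9.87 and 49.3 ± 6.82 CPM per kb) overlapped in the eya-GAL4 libraries and not in the tj-GAL4 ones. Lsd-2 came next, at 23.8 ± 2.45 and 33.2 ± 3.62 CPM per kb. At the low end stood mdy (4.75 ± 0.807 and 3.64 ± 0.0458 CPM per kb), Seipin (2.55 ± 0.140 and 3.15 ± 0.452 CPM per kb) and Lsd-1 (1.27 ± 0.311 and 1.91 ± 0.520 CPM per kb). All other neighbours in this order were separated in both sorted populations, and the order of the means was the same in both. In unsorted cells the order of the means differed: Desat1 was still highest at 123 ± 60.0 and 80.0 ± 2.20 CPM per kb, but Lpin was next at 45.1 ± 1.72 and 42.0 ± 0.240 CPM per kb, and FASN1 stood at 19.9 ± 6.10 and 14.6 ± 4.57 CPM per kb, below bmm, Lpin and Lsd-2 in both crosses. In tj-GAL4 unsorted replicate 1 alone FASN1 was above Lsd-2, at 15.6 and 13.1 CPM per kb. Neighbours overlapped most in tj-GAL4 unsorted cells, where Lsd-2 alone spanned 13.1 to 63.3 CPM per kb.

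**Figure D4:**
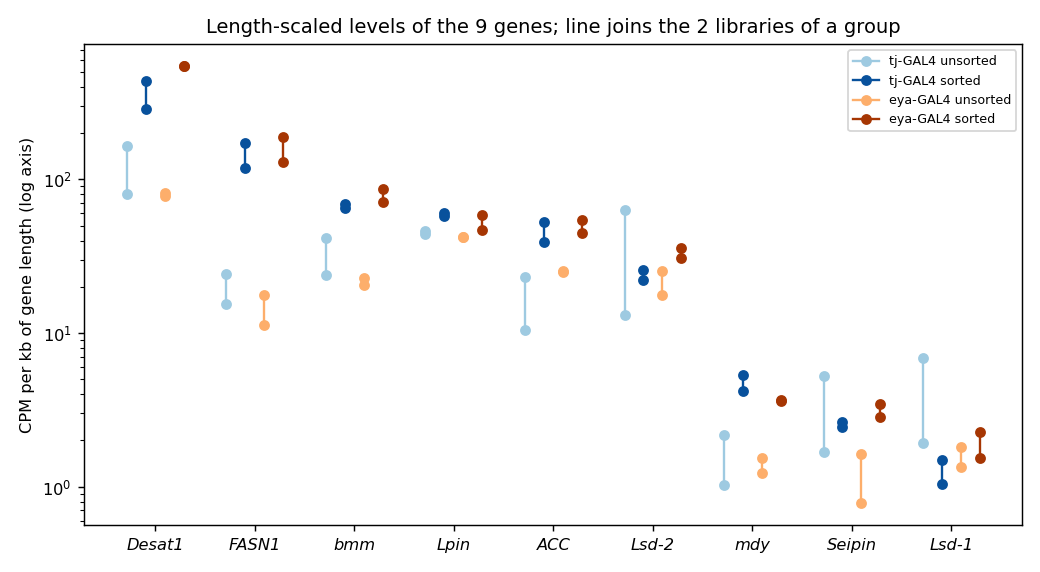
Level of each gene per kb of the deposited gene length, on a log axis, with a line joining the 2 libraries of a group. Genes run from Desat1, at 546 CPM per kb in eya-GAL4 sorted cells, down to Lsd-1, at 1.91 CPM per kb, and the longest lines belong to tj-GAL4 unsorted cells.

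Between the sorted populations no member was called. This comparison sets the early against the mature cyst cells that the study sorted. The crosses and the muscle and hemocyte marker levels differ as well, so stage cannot be told apart from them. Both driver genes, tj and eya, were also found in both populations. Of all tested genes, 0.0239% were called higher and 0.0875% lower in tj-GAL4 than in eya-GAL4 sorted cells. None of the 9 had an unadjusted p under 0.05, and none was called by DESeq2 or limma. The log2 differences, tj-GAL4 minus eya-GAL4, ran from -0.61 ± 0.62 for Lsd-1 to 0.38 ± 0.42 for mdy, with a median of -0.22 against 0.12 over all tested genes. Desat1 differed by -0.59 ± 0.42, Lsd-2 by -0.48 ± 0.61, FASN1 by -0.13 ± 0.43 and ACC by -0.10 ± 0.42. On the RPM scale the values of bmm, Lsd-2, FASN1, ACC and Seipin turned positive, while the median of all genes moved to 0.44. Levels of mdy were higher in both tj-GAL4 sorted libraries than in both eya-GAL4 ones, which held for 29.3% of all tested genes, and those of bmm, Lsd-1, Lsd-2, Desat1 and Seipin lower in both, which held for 27.6%.

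The unsorted cells of both crosses are suspensions of whole testes, and no member was called between them, against 0.0239% of all tested genes higher and 0.0477% lower in the tj-GAL4 cross. Lsd-1 and Seipin had an unadjusted p under 0.05, at 1.47 ± 0.61 and 1.51 ± 0.59 (edgeR adjusted p = 0.405 and 0.388), and neither DESeq2 nor limma called any of the 9. Levels of bmm, Lsd-1, Lpin and Seipin were higher in both tj-GAL4 libraries, against 23.1% of all tested genes, and that of ACC lower in both, against 11.5%. Without tj-GAL4 unsorted replicate 1 the remaining replicate 2 gave 5 members called higher (bmm, Lsd-1, Lsd-2, Desat1 and Seipin) and 1 lower (ACC), in a fit that called 22% of all tested genes higher and 9.54% lower. Without replicate 2 none was called, against 0.426% and 0.819% of all tested genes. Lsd-1 and Seipin were then at 0.23 and 0.43, bmm, ACC, FASN1 and Lpin at 0.088, -0.18, 0.027 and 0.082, and Lsd-2, mdy and Desat1 turned to -0.78, -0.50 and -0.052. A lone library is assumed in these fits to vary like the other groups.

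The difference between the 2 enrichments was called for none of the 9 genes and for 0% of all tested genes. It ran from -2.07 ± 0.86 for Lsd-1 to 0.49 ± 0.59 for ACC, tj-GAL4 minus eya-GAL4. Lsd-1 had an unadjusted p under 0.05 (edgeR adjusted p = 0.332), and no member passed in DESeq2 or limma. Seipin (-1.82 ± 0.82), Lsd-2 (-1.31 ± 0.87) and Desat1 (-1.21 ± 0.60) followed, with edgeR adjusted p = 0.347, 0.447 and 0.362. FASN1 differed by -0.58 ± 0.60 and mdy by 0.19 ± 0.60. Without tj-GAL4 unsorted replicate 1, 5 members (bmm, Lsd-1, Lsd-2, Desat1 and Seipin) were called lower, where 20.4% of all tested genes were called lower and 13.3% higher. Without replicate 2 none was called, against 0.41% of all tested genes lower and 0.104% higher. The values of Lsd-1, Seipin, Desat1, bmm and FASN1 were then -0.89, -0.78, -0.58, -0.35 and -0.19, and those of Lsd-2, mdy, ACC and Lpin 0.26, 0.84, 0.046 and 0.042.

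Other lipid genes were counted by list, beside the 8.98% of all tested genes that rose and 2.38% that fell in the tj-GAL4 cross and the 28% and 20% in the eya-GAL4 cross. No test compares a list with all genes. With single libraries left out, the share of all genes that rose ran from 2.06% to 25% in the tj-GAL4 and from 9.21% to 35% in the eya-GAL4 cross, and the share that fell from 0.16% to 13.4% and from 1.37% to 33.1%. Of 15 further genes of fatty acid synthesis and its control by SREBP, the transcription factor that drives lipogenic genes, none was called in the tj-GAL4 cross, where the median was 0.33. With eya-GAL4 sorting 3 rose and none fell, with a median of 0.74, a share of rises below that of all genes. These were ATPCL, ATP citrate lyase, which supplies cytosolic acetyl-CoA (1.36 ± 0.31, edgeR adjusted p = 0.011), Idh, an isocitrate dehydrogenase that supplies NADPH (1.37 ± 0.31, edgeR adjusted p = 0.0109), and SCAP, which escorts SREBP to its processing (1.05 ± 0.35, edgeR adjusted p = 0.0393). All 3 calls were lost without either eya-GAL4 unsorted library, where none of the 15 was called, 1 was called without either eya-GAL4 sorted library, and 8 were without either tj-GAL4 unsorted library, beside 1 and 3 falls without replicates 1 and 2. In the tj-GAL4 cross 3 rose without unsorted replicate 2 and 2 fell without replicate 1. SREBP itself differed by 0.26 ± 0.41 and 1.11 ± 0.41 and was not called (edgeR adjusted p = 0.657 and 0.0524).

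Genes that take up, activate and oxidise fatty acids had the highest counts of rises among the 6 lists. Of 29 tested, 11 rose and 1 fell in tj-GAL4 sorted cells (median 1.23), and 21 rose and 1 fell in eya-GAL4 sorted cells (median 2.48), against 8.98% and 28% rising among all tested genes. The fatty acid binding protein gene fabp stood at 432 ± 15.6 CPM (SD, n = 2) in tj-GAL4 sorted and 55.3 ± 20.1 CPM in unsorted cells. In the eya-GAL4 cross it stood at 1066 ± 249 CPM and 31.7 ± 2.10 CPM. It rose by 2.97 ± 0.40 and 5.07 ± 0.44 on the log2 scale (edgeR adjusted p = 0.00357 and 0.000334). Echs1, an enoyl-CoA hydratase of mitochondrial beta-oxidation, rose by 3.11 ± 0.45 and 5.10 ± 0.50 (edgeR adjusted p = 0.005 and 0.000443), and Arc42, an acyl-CoA dehydrogenase gene, by 2.19 ± 0.32 and 3.57 ± 0.34 (edgeR adjusted p = 0.00528 and 0.000422). These 6 calls held without each library in turn. The tj-GAL4 count of rises was 3 without tj-GAL4 sorted replicate 1, 7 without sorted replicate 2 or either eya-GAL4 sorted library, and 19 without tj-GAL4 unsorted replicate 2, where 25% of all tested genes rose. The eya-GAL4 count stayed between 14 and 22. The number of falls ran from 0 to 3 and from 0 to 4. Fitted on the tj-GAL4 libraries alone, none of the 29 was called in that cross, and limma on RPM called 2 and 13 rises.

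Lipases and other droplet proteins were mixed. Of 16 tested, 1 rose and 1 fell in the tj-GAL4 cross (median 0.34), and 6 rose and 3 fell in the eya-GAL4 cross (median 0.65). CG5966, a gene of the pancreatic lipase family, rose by 3.14 ± 0.38 and 5.04 ± 0.42 (edgeR adjusted p = 0.00273 and 0.000307), without loss of either call when any library was left out. Jabba, which anchors histones on droplets, rose by 3.03 ± 0.50 in the eya-GAL4 cross (edgeR adjusted p = 0.00341), a call that also held without each library, and differed by 0.29 ± 0.47 in the tj-GAL4 cross (edgeR adjusted p = 0.666). Lip4, a lipase gene, rose by 3.68 ± 0.74 in the eya-GAL4 cross (edgeR adjusted p = 0.0067), a call lost without eya-GAL4 unsorted replicate 4. The gut lipase gene mag fell by 2.60 ± 0.51 in the tj-GAL4 cross (edgeR adjusted p = 0.0158), a call lost without either tj-GAL4 sorted library. For mag the value was -1.80 without tj-GAL4 unsorted replicate 2 (edgeR adjusted p = 0.00255). The eya-GAL4 rises numbered 2 without eya-GAL4 unsorted replicate 4, and the tj-GAL4 rises 5 without tj-GAL4 unsorted replicate 2 and 2 without replicate 1, where 2 fell. None of the 3 eya-GAL4 falls was called when any 1 eya-GAL4 library was left out, and 1 was without either tj-GAL4 sorted library.

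Among 21 other desaturase and elongase genes, 2 rose and 1 fell in the tj-GAL4 cross (median -0.47), and 7 rose and 6 fell in the eya-GAL4 cross (median -0.62), counts near the 28% and 20% of all tested genes. Baldspot, a fatty acid elongase gene, rose by 2.45 ± 0.59 in the tj-GAL4 cross (edgeR adjusted p = 0.0339), a call lost without 6 of the 8 libraries, all but the tj-GAL4 unsorted ones, and a value of 3.54 without tj-GAL4 unsorted replicate 2. In the eya-GAL4 cross it rose by 4.34 ± 0.64 (edgeR adjusted p = 0.00223), which held without each library. Sc2, an enoyl-CoA reductase of the elongation cycle, rose by 1.62 ± 0.29 and the elongase-family gene CG16904 fell by 2.03 ± 0.40 in the eya-GAL4 cross (edgeR adjusted p = 0.00424 and 0.00605). The first call was lost without eya-GAL4 unsorted replicate 3 and the second without either eya-GAL4 sorted library. The elongase gene Elo68alpha fell by 3.61 ± 0.85 in the tj-GAL4 cross and CG15531, of the desaturase family, rose by 1.79 ± 0.48 (edgeR adjusted p = 0.0308 and 0.0473). Both calls were lost without each sorted library of either cross, that of CG15531 also without either eya-GAL4 unsorted library. Both genes were scarce: Elo68alpha stood at 0.342 ± 0.0456 CPM (SD, n = 2) in tj-GAL4 sorted and 4.16 ± 3.32 CPM in unsorted cells. CG15531 stood at 2.93 ± 0.0910 CPM and 0.839 ± 0.0759 CPM. The tj-GAL4 rises numbered 7 without tj-GAL4 unsorted replicate 2 and 0 without any sorted or eya-GAL4 unsorted library, and the falls 4 and 5 without unsorted replicates 1 and 2. In the eya-GAL4 cross 2 rose without either unsorted library, 3 without sorted replicate 2, and 0 to 3 fell without any 1 eya-GAL4 library, against 10 and 11 falls without tj-GAL4 unsorted replicates 1 and 2.

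In glycerolipid and phospholipid synthesis, 1 of 22 genes rose and none fell in the tj-GAL4 cross (median -0.15), and 8 rose and 4 fell in the eya-GAL4 cross (median 0.22), again near the shares of all tested genes. Agpat2, which adds a fatty acid to lysophosphatidic acid ahead of the Lpin step, rose in both, by 1.74 ± 0.33 and 2.13 ± 0.33 (edgeR adjusted p = 0.014 and 0.00267). Its eya-GAL4 call held without each library and its tj-GAL4 call was lost without tj-GAL4 sorted replicate 1. The lipid phosphatase gene wun and the glycerophosphate oxidase gene Gpo1 rose by 3.11 ± 0.58 and 2.32 ± 0.56 in the eya-GAL4 cross (edgeR adjusted p = 0.00504 and 0.0127), and both calls were lost without eya-GAL4 unsorted replicate 4, that of Gpo1 also without either eya-GAL4 sorted library (highest edgeR adjusted p = 0.0951). The eya-GAL4 rises numbered 1 to 3 and the falls 0 without any 1 eya-GAL4 library, and the falls 7 without either tj-GAL4 unsorted library. In the tj-GAL4 cross 5 rose without unsorted replicate 2, and 4 fell without unsorted replicate 1.

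**Figure D5:**
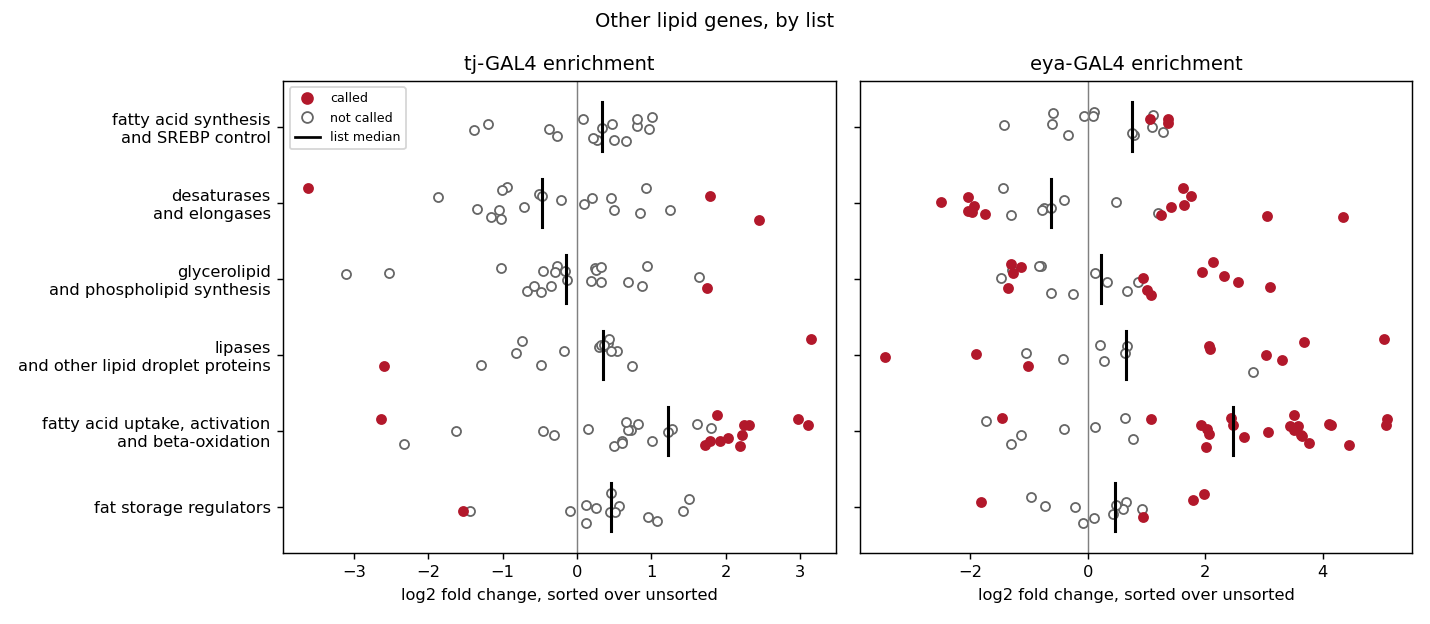
Log2 fold change of sorted over unsorted cells for the genes of 6 related lists, 1 point per gene, red where called by edgeR, with the list median as a black bar. The list of fatty acid uptake, activation and beta-oxidation has the highest medians, 1.23 in the tj-GAL4 cross and 2.48 in the eya-GAL4 cross.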

How the data were processed

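Poly(A)+ RNA of sorted and unsorted testis cells was sequenced from directional libraries, per the labels. Read counts per gene and RPM values (reads scaled to a library total) were deposited by the authors, whose processing notes name FastQC, Bowtie 1.2.2, HTSeq, DESeq2 and the dm6 build. The gene lengths used for CPM per kb are also the authors' deposited values. The total behind the RPM, worked out from the deposited counts and RPM, was 30669063 to 38507084 per library. Gene counts made up 28.0% to 71.6% of it, and what it counts is not stated. A further 20 columns of values were not used. Unsorted eya-GAL4 columns carry numbers 3 and 4, which the labels do not, and are named by them. Of 16018 symbols, 15164 matched the BDGP6 annotation directly and 798 by synonym.

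Counts were analysed with edgeR 4.0.16 in R 4.3.3: genes with at least 1 CPM in at least 2 libraries, TMM scaling, 1 quasi-likelihood fit over 8 libraries with 4 residual degrees of freedom, and Benjamini-Hochberg adjustment over 12570 genes. The SE of an edgeR log2 difference is its size divided by the square root of its quasi-likelihood F statistic. The 5 comparisons were the 2 enrichments, sorted against sorted, unsorted against unsorted, and the difference of the enrichments. No 2 libraries held identical counts. The fit was tested on simulated data with changes in tj-GAL4 sorted cells. It recovered 37 of 103 changes of log2 size 2 and 79 of 94 of size 3. There were 10 false calls among 12295 genes run. A gene not called may therefore still differ. Alternatives were DESeq2 1.42.0, its size factors, limma 3.58.1 on log2(RPM + 1) and log2(RPM + 0.1), no filter, only the groups compared, no mitochondrially encoded genes, a replicate block, each library left out, and, added after seeing the data, TMM before the filter. Named genes are all members, up to 3 called genes with the smallest p per list and enrichment, and the 3 genes most like each member on log2(CPM + 1). Paralogs, SREBP and Hsl are named beside them. The members and lists were chosen with earlier results of these data known.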

Additional observations from a re-analysis of the deposited data

How the results depend on the processing

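Of the 9 genes, FASN1 was called higher in eya-GAL4 sorted cells under all 17 alternatives. In the tj-GAL4 cross the number of members called higher, 1 in edgeR, was 4 with DESeq2, 3 without a filter, 3 without mitochondrially encoded genes, 3 with TMM before the filter (an alternative chosen after seeing the data) and 0 with only the groups compared, where the share of all tested genes called higher, 8.98% in edgeR, was 11.7%, 7.64%, 10.1%, 9.62% and 1.9% in turn; it ran from 0 to 4 with each library left out (2.06% to 25% of all tested genes). The number called lower was 1 with DESeq2 (8.42% of all tested genes). It also rose without tj-GAL4 unsorted replicate 1, where the share of all tested genes called lower rose too. In the eya-GAL4 cross the 4 members called higher became 1 with limma at either pseudocount and 7 with only the groups compared, and ran from 2 to 6. The share of all tested genes called higher moved likewise, from 28% to 7.24% and 8.23% with limma and 37.8% with only the groups compared, and ran from 9.21% to 35%. The 0 called in the unsorted comparison ran from 0 to 5 higher and 0 to 1 lower, and in the difference of the enrichments from 0 to 5 lower, with each library left out. The cause was not tested.

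On the RPM scale the median of all tested genes moved from -0.09 to -0.47 and -0.72 (pseudocounts of 1 and 0.1) in the eya-GAL4 cross, from 0.12 to 0.44 and 0.60 between sorted cells, from -0.03 to 0.40 and 0.55 in the difference, and from 0.14 to 0.04 and 0.04 between unsorted cells; with DESeq2 size factors it moved from -0.08 to -0.18 in the tj-GAL4 cross, from 0.12 to -0.04 between sorted cells and from -0.03 to -0.16 in the difference. Higher calls over all genes were 79.1% of calls in the tj-GAL4 and 58.3% in the eya-GAL4 cross, against 57.4% and 40.5% with limma at a pseudocount of 1 and 62.9% and 38.6% at 0.1. Signs of uncalled members turned there: in the eya-GAL4 cross Lsd-1 (-0.20, -0.38), Lsd-2 (-0.039, -0.041) and Lpin (-0.37, -0.37); between sorted cells bmm (0.30, 0.30), Lsd-2 (0.042, 0.043), FASN1 (0.39, 0.39), ACC (0.41, 0.42) and Seipin (0.14, 0.21); and in the difference FASN1 (0.019, 0.016). Lpin turned to -0.024 between unsorted cells with only the groups compared and -0.030 without mitochondrially encoded genes, and to -0.057 in the difference with DESeq2 or its size factors. With each library left out, signs also turned for Lsd-2 (-1.42 to 0.84) and Seipin (-1.05 to 0.57) in the tj-GAL4 cross, Lsd-1 (-0.031 to 0.53) in the eya-GAL4 cross, FASN1 (-0.49 to 0.17) and ACC (-0.39 to 0.11) between sorted cells, Lsd-2 (-0.78 to 1.56), mdy (-0.50 to 0.66) and Desat1 (-0.052 to 1.05) between unsorted cells, and Lsd-2 (-2.04 to 0.26), mdy (-0.28 to 0.84) and Lpin (-0.089 to 0.22) in the difference.

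With the replicate number as a block within the tj-GAL4 cross, 2 members, FASN1 and ACC, were called higher there, beside 7.61% of all tested genes. Index length goes with the number in this cross. Nothing says that either marks a shared batch, so the numbers were not taken as pairs in the main fit. Deviations of same-numbered tj-GAL4 libraries correlated at -0.35 across genes. This value cannot show pairing or its absence, since groups of different crosses also gave values of that size. The unsorted groups of the 2 crosses gave -0.37, and tj-GAL4 sorted with eya-GAL4 unsorted libraries gave 0.34. With eya-GAL4 sorted libraries, the tj-GAL4 unsorted and sorted groups gave 0.08 and 0.03. Which label belongs to which eya-GAL4 unsorted column is not given, so whether their numbers match those of tj-GAL4 libraries is unknown. Depth limits Lsd-1, Seipin and mdy most, with 27 to 252 counts per library.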

Other observations

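Among regulators of fat storage, AkhR fell in both crosses. Of 14 tested, none rose and 1 fell in tj-GAL4 sorted cells (median 0.45), and 3 rose and 1 fell in eya-GAL4 sorted cells (median 0.46), against 8.98% and 28% of all tested genes rising and 2.38% and 20% falling. AkhR, the receptor of the adipokinetic hormone that mobilises fat, had log2 changes of -1.53 ± 0.41 and -1.81 ± 0.42 (edgeR adjusted p = 0.0474 and 0.0114). The first of these calls was lost without any library but the tj-GAL4 unsorted ones, the second without eya-GAL4 unsorted replicate 4 or sorted replicate 1. The kinase genes Lk6 and S6k rose by 1.79 ± 0.44 and 1.99 ± 0.64 in the eya-GAL4 cross (edgeR adjusted p = 0.0137 and 0.0334), and both calls were lost without any 1 of the 4 eya-GAL4 libraries, that of S6k also without either tj-GAL4 sorted library. No eya-GAL4 rise was called without any 1 eya-GAL4 library, and 5 were without tj-GAL4 unsorted replicate 1. In the tj-GAL4 cross 5 of the 14 rose without tj-GAL4 unsorted replicate 2, where 25% of all tested genes rose, and 1 without replicate 1, where 2 fell.

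The genes whose log2 levels over the 8 libraries were most like those of each member, among 9474 genes with a mean of at least 5 CPM, were nSyb (r = 0.998), CG3631 and fl(2)d for FASN1, Cyp4ae1 (r = 0.999), Sh3beta and Ras85D for Desat1, Mccc2 (r = 0.997), flr and stl for bmm, CG34347 (r = 0.991), ASPP and tai for mdy, and gukh (r = 0.992), CG45263 and CG1371 for ACC. For Lpin they were PEK (r = 0.994), Lrch and LanA, for Lsd-1 CG9672 (r = 0.984), CG10910 and ringer, for Lsd-2 Mmp1 (r = 0.987), Fhos and CG10337, and for Seipin CG3902 (r = 0.973), CG5399 and CG17597. These Pearson values describe 8 libraries that share 4 groups and 1 library that stands apart.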
